A study of Mus musculus with 7 samples.

Results

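The MFOLb cluster is a small group of cells in an annotation of sorted oligodendrocyte lineage cells (OLCs) from adult mouse cortex, and its members were the cells to which the study's cluster column gives that name. Of its members 106 were dorsally derived cells of control mice (dOLCs), 8 ventrally derived cells of control mice (vOLCs) and 43 ectopic vOLCs of mice in which dorsal OLCs were ablated, among 9291 kept cells, of which the cluster made up 1.69% (95% Clopper-Pearson interval 1.44 to 1.97; intervals in this text cover counting error only). The name stands for the second of a pair of myelin-forming oligodendrocyte clusters, but the genes that set these cells apart were genes of astrocytes, and the cluster is therefore called here by its annotated name without reading a cell type from it.

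The mice were on a mixed C57BL/6 and B6CBA background, of both sexes, at postnatal day 90, and the labels name motor and cingulate cortex as the tissue. The methods of the study speak of neocortices but also of dissecting the corpus callosum (CC), so the exact region is uncertain. Control mice carried Emx1-Cre and the Sox10-GFP-TdTom reporter. Emx1 drives Cre in progenitors of the dorsal forebrain, so cells of dorsal origin express tdTom (dOLCs) and Sox10-expressing cells of ventral origin keep GFP (vOLCs). Ablated mice carried in addition Sox10-GFP-DTA, which kills Sox10-expressing cells of dorsal origin through diphtheria toxin fragment A, and their GFP-positive cells are named ectopic vOLCs. Cells were sorted by reporter colour and pooled, from 4 control mice and 2 ablated mice, into 3 libraries, 1 for each condition. For that reason no difference between conditions has a replicate check, mice cannot be told apart within a library, and no p-value is given. The reporter transcripts were not rows of the count table, so the sort could not be checked by them.

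Oligodendrocytes wrap axons in myelin. In the adult cortex they arise from oligodendrocyte precursor cells (OPCs) through committed precursors (COP), newly formed oligodendrocytes (NFOL) and myelin-forming oligodendrocytes (MFOL), which switch on myelin proteins and lipids, to mature oligodendrocytes (MOL). Astrocytes are another glial class of the same tissue, known for gap junctions built of connexins, water channels at blood vessels, uptake of glutamate and support of neuronal metabolism. Sox10 is a transcription factor of the oligodendrocyte lineage, whereas Sox9 in the adult cortex is known mainly from astrocytes.

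By the ratio of its level in MFOLb to that in the next highest cluster, the first gene was Gja1, connexin 43, the main gap junction protein of astrocytes, and next came Slco1c1, a carrier of thyroid hormone and organic anions. The promoters of both are shown because these genes had the largest such ratios. Each is the 250 bases before the start of the gene on the plus strand in RefSeq on GRCm38.p6, written 5′ to 3′, at chr10:56377050-56377299 for Gja1 and at chr6:141524104-141524353 for Slco1c1. Capitals mark a match, on either strand, to ACAAAG or ACAATG, forms bound by SOX factors.
Gja1: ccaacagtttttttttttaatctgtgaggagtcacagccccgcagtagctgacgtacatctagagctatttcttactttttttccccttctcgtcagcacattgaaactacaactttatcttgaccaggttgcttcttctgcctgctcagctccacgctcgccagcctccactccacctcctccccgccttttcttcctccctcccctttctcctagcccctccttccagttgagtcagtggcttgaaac
Slco1c1: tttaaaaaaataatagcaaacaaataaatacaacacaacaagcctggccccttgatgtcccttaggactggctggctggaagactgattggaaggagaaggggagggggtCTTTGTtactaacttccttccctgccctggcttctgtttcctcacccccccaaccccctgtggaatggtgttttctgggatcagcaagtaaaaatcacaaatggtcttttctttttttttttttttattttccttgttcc
The Gja1 window held neither form, and the Slco1c1 window held ACAAAG once, on the minus strand. Of the 15 genes with the largest ratio, 13 had a promoter in the RefSeq table, and 4 of these 13 held either SOX form, against 25.2% of all 32851 promoters of that length. TTGGC, the half-site of NFI factors, was in 4 of the 13 and in 41.5% of all promoters, and the searches for both kinds covered both strands with no overlap in their letters. A gene was counted if any of its promoters matched, whereas the percents are of single promoters. The counts and the percents are therefore not in the same unit. A match describes letters in the window and is neither a bound site nor a cause.

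MFOLb cells lay in all 3 libraries. Among the 5804 cells of control dOLCs their share was 1.83% (1.50 to 2.20), among the 925 of control vOLCs 0.865% (0.374 to 1.70) and among the 2562 of ectopic vOLCs 1.68% (1.22 to 2.25), and the intervals of all 3 shares overlap. Together the members held 802823 UMIs (unique molecules counted), of which 499597 were from control dOLCs, 51684 from control vOLCs and 251542 from ectopic vOLCs. Statements on the control vOLC members rest on 8 cells and are the least precise. The median MFOLb cell had 4296.5 UMIs in the control dOLC library, 6291 in that of control vOLCs and 6371 in that of ectopic vOLCs, compared with 3617.5, 5279.5 and 5649.5 in the mature clusters of the same libraries (MOL1, MOL2a, MOL2b and MOL5/6a to d). The median percent of mitochondrial UMIs was 7.26, 6.92 and 7.86 in MFOLb and 6.94, 6.92 and 6.31 in the mature clusters. The doublet caller Scrublet called 50 of the 9291 cells and none of the members, and their median score was 0.09 against 0.11 over the mature clusters. Its simulated doublets are pairs of kept cells, among which no cluster is annotated as astrocytes, so joint droplets of an oligodendrocyte and an astrocyte were not tested. One member carried a cell barcode also present in another library.

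**Figure D1:**
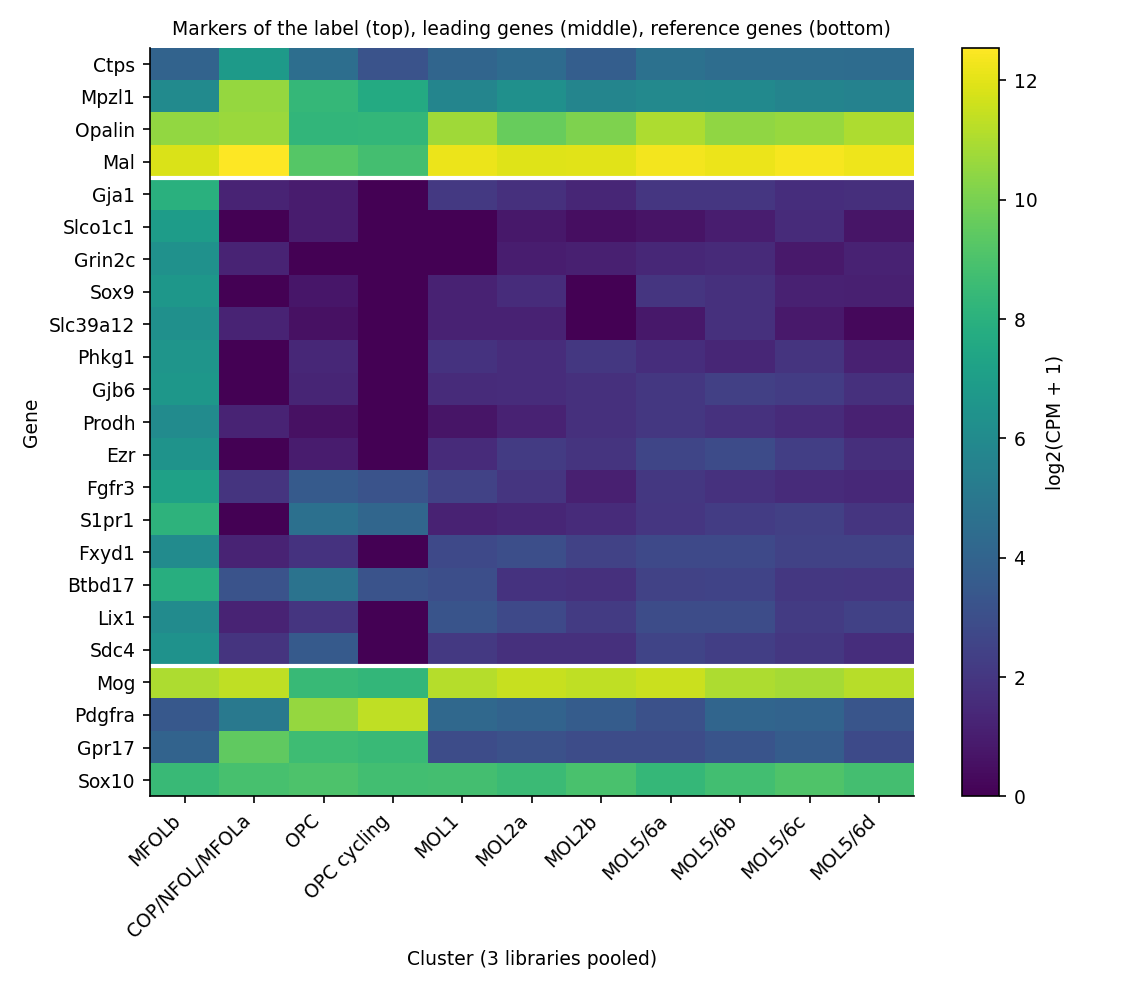
Level of genes (rows) in the 11 annotated clusters (columns) with the 3 libraries pooled, as colour on the scale of log2(CPM + 1), for the 4 markers of the label (top), the 15 leading genes of MFOLb (middle) and reference genes of the lineage (bottom). Each leading gene was highest in MFOLb, whereas each marker of the label was higher in at least 1 other cluster.

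Ctps, Mpzl1, Opalin and Mal were the markers given for MFOLb, and none of them was highest in it. Ctps, an enzyme of cytidine nucleotide synthesis, was at 14.9 CPM (counts scaled to a total of 1000000 UMIs over the summed cells) in MFOLb and at 111.6 CPM in the cluster COP/NFOL/MFOLa, and MFOLb ranked 9 of 11 clusters. Mpzl1, a membrane protein of the myelin protein zero family, was at 62.3 CPM in MFOLb, 323 CPM in OPCs and 1491 CPM in COP/NFOL/MFOLa, which placed MFOLb at rank 5. These early markers were low in MFOLb.

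Opalin, a membrane protein of myelinating oligodendrocytes, was at 1345 CPM in MFOLb of control dOLCs, 1335 CPM in control vOLCs and 1729 CPM in ectopic vOLCs, and MFOLb ranked 6 of 11. Mal, a proteolipid of compact myelin, was at 3647, 3038 and 3900 CPM in the same order, and MFOLb ranked 9 of 11. Both lay slightly under the level of the mature clusters. The log2 difference of MFOLb from the mature clusters, taken within libraries and combined by the Mantel-Haenszel method, was −0.17 (95% counting interval −0.25 to −0.08) for Opalin and −0.37 (−0.42 to −0.31) for Mal. For Ctps it was −0.47 (−1.29 to 0.35) and for Mpzl1 0.17 (−0.24 to 0.57), intervals that hold no difference. Against COP/NFOL/MFOLa, Ctps was lower by a log2 difference of −2.95 (−3.84 to −2.06) and Mpzl1 by −4.54 (−4.93 to −4.14).

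By contrast, each of the 10 astrocyte markers examined (Aqp4, Gfap, Aldoc, Slc1a3, Slc1a2, Gja1, Aldh1l1, Clu, Slc4a4 and Mlc1) was highest in MFOLb among the 11 clusters. Of 2391 genes with at least 50 UMIs in the members, 121 (5.06%) were highest in MFOLb, and 36 of these were at least 2-fold above the next cluster. In 21 of the 36 the next cluster was OPC or cycling OPC. These genes took part in the authors' clustering, so their excess describes the cluster and is no test.

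Gja1 was at 254 CPM in MFOLb of control dOLCs, 406 CPM in control vOLCs and 195 CPM in ectopic vOLCs, against 2.78, 1.86 and 2.29 CPM in the mature clusters. Over libraries its level was 75.6 times that of the next cluster, MOL1. Of its 197 UMIs in MFOLb, 158 lay in the 39 members with the highest share of UMIs on astrocyte markers, a list that includes Gja1, and in 4 groups of members ordered by that share its level was 34.0, 75.8, 94.5 and 712 CPM. All 3 libraries showed the excess, and the log2 difference from the mature clusters was 6.58 (6.22 to 6.94). After every cell was thinned to 1000 UMIs, 19.7% of MFOLb cells had a Gja1 UMI, compared with 0.351% of mature cells and 0.0767% of OPCs, which should lack the gene (unthinned, 43.3%, 1.17% and 0.307%). Slco1c1 was at 142, 232 and 59.6 CPM in MFOLb and at 1.24, 0.465 and 0.316 CPM in the mature clusters, a log2 difference of 7.09 (6.51 to 7.67). Of its 98 UMIs in MFOLb, 79 lay in the same 39 members, and its level over the 4 groups was 14.6, 21.7, 63.0 and 356 CPM. The size of both differences was thus carried mostly by those members.

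Sox9 was at 94.1 CPM in MFOLb of control dOLCs, 155 CPM in control vOLCs and 95.4 CPM in ectopic vOLCs, against 1.60, 1.39 and 1.98 CPM in the mature clusters, with a log2 difference of 5.85 (5.37 to 6.33). Fgfr3, a fibroblast growth factor receptor, was at 154, 252 and 99.4 CPM in MFOLb, and S1pr1, a receptor of sphingosine 1-phosphate, at 298, 484 and 191 CPM. Their log2 differences from the mature clusters were 5.89 and 6.52. The other leading genes were Grin2c, an NMDA receptor subunit, Slc39a12, a zinc transporter, Phkg1, the catalytic subunit of phosphorylase kinase, Gjb6, connexin 30, Prodh, proline dehydrogenase, Ezr, ezrin, and Fxyd1, a regulator of the sodium pump, with Btbd17, Lix1 and Sdc4, a syndecan. Relative to the next cluster, Grin2c was 42.9 times as high, Sox9 35.0 times, Slc39a12 34.3 times and Gjb6 23.4 times, and the last of the 15, Sdc4, was 7.66 times as high.

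Among the transporters and channels of astrocytes, Slc1a2, the glutamate transporter GLT-1, was at 1217, 1412 and 978 CPM in MFOLb and at 68.2, 79.0 and 76.3 CPM in the mature clusters, a log2 difference of 4.01 (3.91 to 4.12). Aqp4, the water channel aquaporin 4, was at 140, 174 and 123 CPM against 2.94, 0.465 and 2.53 CPM, a log2 difference of 5.69 (5.29 to 6.09). Slc1a3, the glutamate transporter GLAST, differed from the mature clusters by 3.31. For each of these genes the 3 MFOLb values lay above the 3 mature values. Gfap, the intermediate filament of reactive and white matter astrocytes, had 7 UMIs over all members, too few to pass the filter on low counts.

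**Figure D2:**
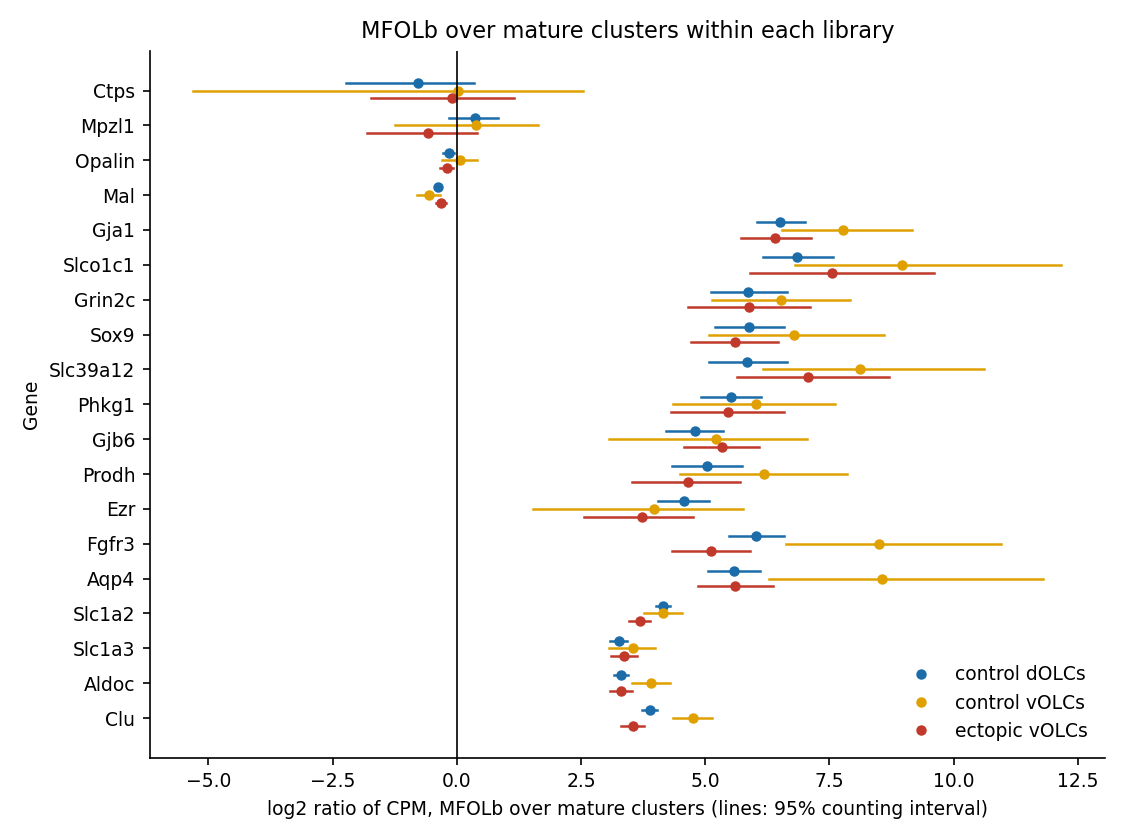
Log2 ratio of CPM of MFOLb to the mature clusters (horizontal axis) within each library, with 95% counting intervals as lines, for the markers of the label, leading genes and other astrocyte markers. Leading genes and astrocyte markers lay above 0 in all 3 libraries, with the longest intervals in control vOLCs, and the markers of the label lay near 0.

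Across genes, MFOLb was compared with the mature clusters over 5716 genes that reached 50 UMIs in sum and were detected in 10% of the cells of one side or the other. A gene was called when its level differed by more than 2-fold and its interval left out a ratio of 1. Of these genes 336 (5.88%) were called higher and 13 (0.227%) lower, and the median log2 difference over all of them was −0.01. In control dOLCs and in ectopic vOLCs separately, 332 of the 336 and 12 of the 13 had the same direction. The astrocyte markers accounted for 9 of the calls, every one of the 9 that passed the filter, with a median log2 difference of 4.01.

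Beyond the leading genes, further called genes were also known from astrocytes. Mertk, F3, Lfng and Slc7a10 were named for their ratios, and the others given here were chosen after their values were seen. Cst3, the protease inhibitor cystatin C, was at 3345, 2844 and 3304 CPM in MFOLb and differed from the mature clusters by 2.81 on the log2 scale. Its level was above that of the mature clusters in all 3 libraries. The metallothioneins Mt2 and Mt3 differed by 2.86 and 2.74, Sparcl1, a secreted matrix protein, by 3.64, and the transporters Slc7a10 and Slc6a11 by 5.87 and 5.70. Mertk, a receptor for phagocytosis, differed by 6.90, F3, tissue factor, by 5.95, and Lfng, a glycosyltransferase of Notch receptors, by 5.91. OPCs also held some of these transcripts. With the libraries pooled, Cst3 was at 3300 CPM in MFOLb and 2501 CPM in OPCs. Slc7a10 was at 191 and 131 CPM and Slc6a11 at 149 and 46.4 CPM in the same order.

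The genes of myelin moved little. Of 15 myelin protein genes tested, none was called in either direction, 14 were below 0 and the median log2 difference from the mature clusters was −0.24. Summed over the list, myelin protein transcripts took 61832 CPM in MFOLb of control dOLCs, 57832 CPM in control vOLCs and 67305 CPM in ectopic vOLCs, against 73412, 80480 and 81503 CPM in the mature clusters. MFOLb was thus the lower in each library, while OPCs held between 12239 and 19555 CPM. The same list in COP/NFOL/MFOLa took between 89045 and 101203 CPM. Of 15 myelin-forming oligodendrocyte genes tested, none was called (median −0.25), and of 26 mature oligodendrocyte genes 1 was called higher (Hopx, a homeodomain protein without DNA binding) and 1 lower (Klk6, the secreted protease kallikrein 6), with a median of −0.26.

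Klk6 had the most negative difference, at 30.0, 58.0 and 51.7 CPM in MFOLb and at 99.1, 442 and 112 CPM in the mature clusters, with a log2 difference of −1.70 (−2.21 to −1.19). The mature side includes MOL2, and against the MOL5/6 clusters alone the difference was 0.65, the opposite direction. The other named genes called lower, among them Ggct (−1.38), Rrp7a (−1.28), Mob3b (−1.25) and Tubb3 (−1.09), a neuronal tubulin, rested on 10 to 22 UMIs each in MFOLb, and with cells thinned to 1000 UMIs Tubb3 turned to 0.027. No list fixed for this cluster had more than 1 gene called lower against the mature clusters.

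Sox10, Olig1, Olig2, Myrf and Nkx6-2 were near their level in the mature clusters, and 5 other regulators of the lineage were called. Sox10 was at 380, 252 and 334 CPM in MFOLb and at 486, 378 and 355 CPM in the mature clusters, a log2 difference of −0.29 (−0.46 to −0.12), and was not called. Olig1, Olig2, Myrf and Nkx6-2, which specify the lineage or drive its myelin genes, differed by −0.19, −0.14, −0.22 and −0.29 and were not called either. Of 27 regulators tested, 5 were called higher and none lower, with a median of 0.06. These were Sox2 (1.32), which is expressed in glial progenitors and astrocytes, Id2 (4.04) and Id4 (4.30), inhibitors of basic helix-loop-helix factors, and Hes5 (2.25) and Hes1 (3.25), targets of Notch signalling. With the libraries pooled, Hes5 was at 48.6 CPM in MFOLb and 487 CPM in OPCs. Hes1 was at 27.4 and 184 CPM and Id2 at 156 and 176 CPM in the same order. Id4, by contrast, was at 41.1 CPM in MFOLb and 4.74 CPM in OPCs.

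Of the remaining lists, the calls were most frequent among channels, pumps and connexins, OPC genes and tubulins, set beside the 5.88% of all tested genes called higher. Among 21 cholesterol synthesis genes, none was called lower and the median was 0.13. Of 21 fatty acid and galactolipid genes none was called. Among 26 tubulin and microtubule genes, 4 were called higher (Tubb2a at 2.62, Tubb2b, Tuba4a and Map2) and Tubb3 lower, and among 29 actin genes Tmsb10 was called lower. Of 17 channels, pumps and connexins, 5 were called higher, among them Slc1a2, Slc1a3, Gria2 (2.98) and Atp1b1. Gria2 is a subunit of AMPA receptors. Adgrg1, an adhesion receptor, was called higher among 25 axoglial genes, and 2 of 5 OPC genes were, Ptprz1 (3.49) and Gpr37l1 (4.51), both of which astrocytes also express. Several of these genes were higher in OPCs than in MFOLb with the libraries pooled, whereas Slc1a2 and Slc1a3 were highest in MFOLb. Ptprz1 was at 3088 CPM in OPCs and 308 CPM in MFOLb, Gpr37l1 at 2019 and 717 CPM and Gria2 at 1029 and 267 CPM. Atp1b1 was at 237 and 82.2 CPM, Adgrg1 at 194 and 58.5 CPM and Map2 at 115 and 33.6 CPM. Frmd4a was called higher among 12 newly formed oligodendrocyte genes, and none was called of 4 committed precursor, 5 iron handling, 9 immediate early and heat shock, 3 antigen presentation and 2 cell cycle genes.

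Markers of other cell types took few UMIs, but those of 3 types lay above the mature clusters. Summed microglia markers took 34.0, 0 and 55.7 CPM in MFOLb of control dOLCs, control vOLCs and ectopic vOLCs, against 34.7, 37.9 and 31.1 CPM in the mature clusters. Neuron markers took 56.0, 19.3 and 23.9 CPM against 32.2, 20.0 and 22.5 CPM, a log2 difference of the sums of 0.62 (0.13 to 1.10). Endothelial and mural markers took 36.0, 0 and 7.95 CPM against 7.79, 9.29 and 4.59 CPM, a difference of 1.85 (1.19 to 2.51) that rested on 20 UMIs in MFOLb. Fibroblast markers took 18.0, 0 and 3.98 CPM against 0.103, 0.232 and 0.316 CPM, a difference of 6.12 (4.64 to 7.61) on 10 UMIs. In all 3 lists the excess was largest in control dOLCs, and the 8 cells of control vOLCs showed none. The astrocyte markers, by contrast, summed to 4850, 5998 and 3797 CPM in MFOLb, 346, 311 and 310 CPM in the mature clusters, between 1472 and 1697 CPM in OPCs and between 167 and 195 CPM in COP/NFOL/MFOLa. The part of RNA from other cells in these values was not tested.

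The cluster COP/NFOL/MFOLa, with 111 cells, carries the first myelin-forming name, and MFOLb differed from it in both directions. Over 4294 genes tested, 285 (6.64%) were called higher in MFOLb and 375 (8.73%) lower. Genes of committed precursors and newly formed oligodendrocytes were low: 7 of 9 tested committed precursor genes were called lower with a median log2 difference of −3.97, and 15 of 16 newly formed oligodendrocyte genes with a median of −2.56. Gpr17, a receptor that marks committed precursors, was at 20.0, 0 and 7.95 CPM in MFOLb against 704, 1251 and 422 CPM in COP/NFOL/MFOLa. The difference of Gpr17 was −5.48, that of Neu4, a sialidase, −5.44, that of Enpp6, a phosphodiesterase of newly formed oligodendrocytes, −4.00, and that of Bcas1 −1.77. Fyn, a kinase of early myelination, differed by −3.97 and Tcf7l2, a regulator of differentiation, by −2.37.

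Mature oligodendrocyte genes were higher in MFOLb than in COP/NFOL/MFOLa. Of 24 tested, 16 were called higher and 1 lower, with a median log2 difference of 1.58. Apod, a lipid carrier, differed by 1.58, Car2, carbonic anhydrase 2, by 1.58, Trf, transferrin, by 1.12, Hapln2, a matrix protein of nodes, by 2.32 and Anln, anillin, by 1.93. Of 16 myelin-forming oligodendrocyte genes, 1 was called higher (Tppp3) and 5 lower (Ctps, Mpzl1, Tmem141, Ddr1 and Cyfip2). Of 15 myelin protein genes, Cldn11 (−1.08), Cd9 (−1.94) and Mpzl1 were called lower. The astrocyte markers that passed were higher in this comparison too, 8 of 8 with a median of 4.93. The most positive differences, such as Gja1 (7.57) and Slc4a4 (7.37), rested on 1 or 2 UMIs in COP/NFOL/MFOLa and have wide intervals.

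Among the 30 nearest neighbours of each member on 50 principal components, 27.3% were other MFOLb cells, a share that follows from clustering on the same expression. Of the neighbours outside the cluster, 97.3% were mature, compared with 84.2% of all cells outside it, 2.69% were OPCs, compared with 14.3%, and none were of COP/NFOL/MFOLa, compared with 1.22%. The MOL5/6 clusters made up 86.3% of these neighbours and 67.7% of cells, and MOL5/6b alone 42.0% and 24.4%. The cells next to MFOLb were thus mature oligodendrocytes in a higher share than among all cells, as a description of the same data that gave the clusters. In control dOLCs MOL5/6b gave 37.9% of all neighbours of members, whereas in ectopic vOLCs MOL5/6d gave 31.9% and MOL5/6a 25.6%. The libraries themselves differed in the same way, since MOL5/6b held 1947 of the 5804 control dOLCs and 42 of the 2562 ectopic vOLCs, and MOL5/6d and MOL5/6a held 837 and 900 of the ectopic vOLCs.

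**Figure D3:**
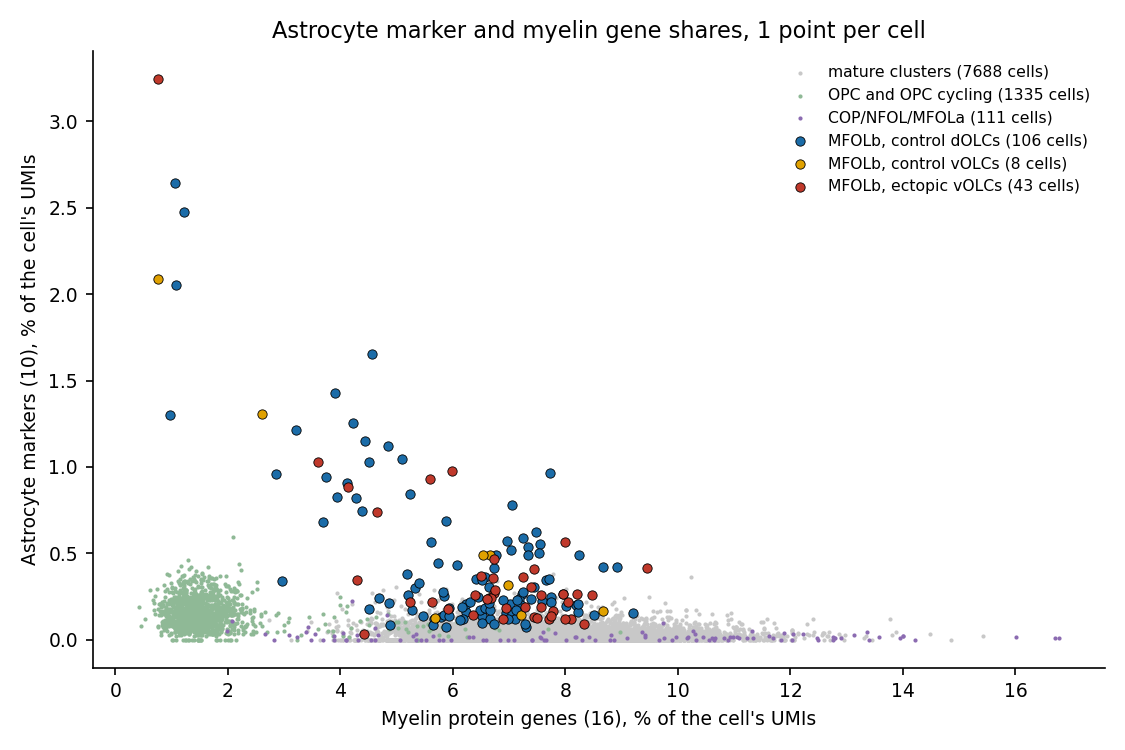
Percent of each cell's UMIs on the 10 astrocyte markers (vertical axis) against that on the 16 myelin protein genes (horizontal axis), 1 point per cell, with MFOLb cells coloured by library over the cells of other clusters. MFOLb cells with most astrocyte UMIs had the lowest myelin share.

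Cell by cell, the astrocyte genes were spread over most of the cluster but unevenly. The 10 astrocyte markers took a median 0.260% of a member's UMIs, with a range from 0.0353% to 3.25%, and by library the medians were 0.266% (control dOLCs), 0.406% (control vOLCs) and 0.256% (ectopic vOLCs). Mature cells had a median of 0.0267% and OPCs one of 0.144%. Of the members, 114 (72.6%) lay above the 99th percentile of mature cells, 53 above every mature cell and 32 above every cell of any other cluster. At least 3 of the 10 markers were detected in 91.1% of members, 10.4% of mature cells and 56.1% of OPCs.

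Most members had a myelin share near that of mature cells. Myelin protein genes took a median 6.65% of a member's UMIs (range 0.755 to 9.44) and 7.42% of a mature cell's, while in OPCs, which do not make myelin, the median was 1.49% (range 0.413 to 8.97), so a low share cannot be told apart from free RNA. In 6 members the myelin share was under 2%, a level that 0 of 7688 mature cells had and at which most OPCs lay, and all 6 had at least 1% of UMIs on astrocyte markers. They came from all 3 libraries, with 4 from control dOLCs, 1 from control vOLCs and 1 from ectopic vOLCs. Across all member cells the astrocyte and the myelin share had a Pearson r of −0.72 and a Spearman rho of −0.36. Both are shares of the same UMIs, cells of a library share its preparation, and without the highest 39 cells r was 0.08 and rho 0.08.

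The members were split into 4 groups of 40, 39, 39 and 39 cells by rising share of UMIs on astrocyte markers, to see what else varied with it. The 14 leading genes outside the astrocyte marker list together stood at 423, 460, 882 and 4192 CPM from the lowest to the highest group, against 38.6 CPM in the mature clusters. Sox9 was at 14.6, 48.7, 78.7 and 234 CPM, and at 1.71 CPM in the mature clusters. Both were highest in the last group. In the lowest group Sox9 rested on 3 UMIs, and since these genes were named for being highest in MFOLb, their lying above the mature clusters adds nothing.

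Of the oligodendrocyte genes examined over the 4 groups, several of myelin and Sox10 were lowest in the last. From the lowest to the highest group, Mog, a surface protein of myelin, was at 2235, 2269, 2194 and 1451 CPM and Sox10 at 408, 384, 388 and 261 CPM. Mal was at 4208, 4402, 3706 and 2592 CPM, Mbp, myelin basic protein, at 6647, 6612, 5596 and 3881 CPM, and Opalin at 1633, 1679, 1444 and 1149 CPM. The highest group was thus the lowest of the 4 for each of these 5 genes, whereas Mpzl1, at 72.9, 48.7, 47.2 and 76.6 CPM on 9 to 17 UMIs a group, did not follow them. Cst3, which the split did not use, was at 1841, 2280, 2740 and 5982 CPM. The comparison with the mature clusters gave 159 genes higher and 30 lower when the highest group was left out, of which 138 of the higher ones were also called with all members.

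**Figure D4:**
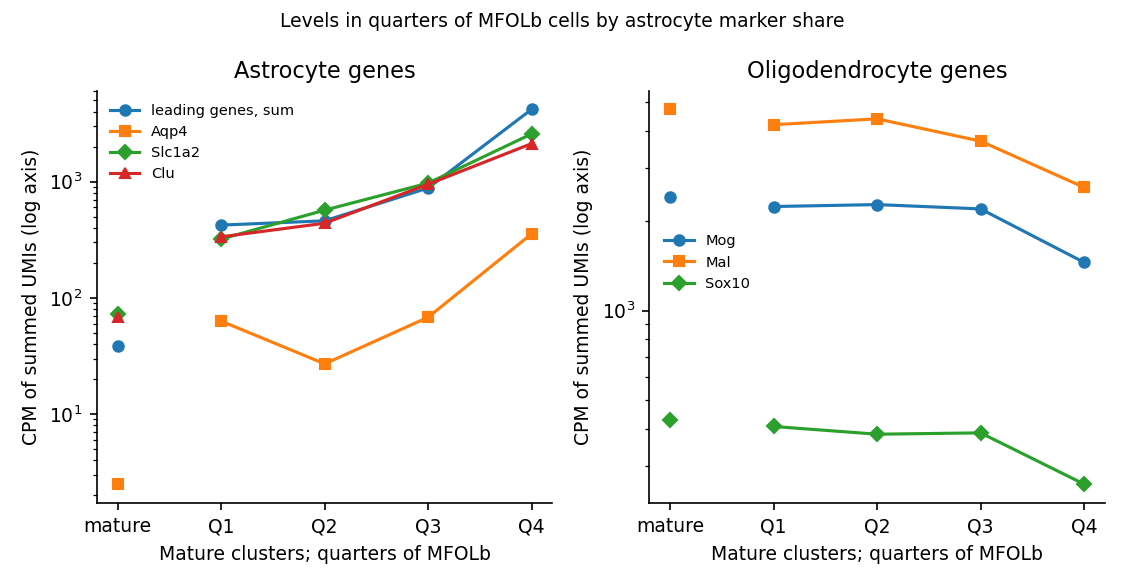
Level in CPM (log axis) of astrocyte genes (left; the leading genes as 1 sum) and oligodendrocyte genes (right) in the mature clusters and in the 4 groups of MFOLb cells from lowest (Q1) to highest (Q4) share of UMIs on astrocyte markers, 1 point per group. Aqp4, Slc1a2 and Clu helped define the groups, and the 3 oligodendrocyte genes were lowest in Q4.

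Ectopic vOLCs replace dorsal cells in the ablated cortex, and their members of the cluster were compared with those of control dOLCs, 43 cells against 106. Of 2263 genes tested, 12 (0.53%) were called higher in ectopic vOLCs and 62 (2.74%) lower, so 16.2% of calls were higher. With TMM scaling in place of totals the calls were 25 higher and 45 lower, of which 35.7% were higher. The comparison is of 1 library with another and the cells of a library do not stand for mice.

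Magi1, a scaffold of cell junctions, was at 52.0 CPM in control dOLCs, 0 CPM in control vOLCs and 131 CPM in ectopic vOLCs, a log2 difference of ectopic vOLCs from control dOLCs of 1.33 (0.55 to 2.13), and the same contrast in the mature clusters was 1.40. Polr2f, a subunit of RNA polymerases, was at 172, 329 and 374 CPM with a difference of 1.12 (0.68 to 1.56) and of 1.18 in mature cells. Sft2d1, a protein of vesicle transport, was at 102, 155 and 211 CPM, with 1.05 in MFOLb and 0.92 in mature cells, but −0.11 in MFOLb with cells thinned to 1000 UMIs. All 3 genes are on the list that the study drew up from higher levels in ectopic MOL5/6 cells of these libraries, which is no independent evidence. Trim44 (1.21) and Taz (1.18) were near 0 in mature cells, with 0.04 and 0.01, and Spr, sepiapterin reductase, was at 1.25 in MFOLb and 0.27 in mature cells.

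Several genes called lower in ectopic MFOLb cells were also among those raised in MFOLb. Btbd17 was at 266, 580 and 91.4 CPM in control dOLCs, control vOLCs and ectopic vOLCs, a difference of −1.54 (−2.25 to −0.90), against −0.36 in mature cells. Slc7a10, a neutral amino acid transporter, differed by −1.45 (−2.20 to −0.77), against −0.38 in mature cells. Gabrb1, a GABA receptor subunit, was at 112, 232 and 35.8 CPM, a difference of −1.65, against −0.09. Ezr (−1.47) was lower too. All 8 astrocyte markers tested were below 0, with a median of −0.37 (−0.15 in mature cells), and Slc4a4, a bicarbonate transporter, was the one called (−1.06, against 0.33 in mature cells). In the highest of the 4 groups by astrocyte share there were 30 cells of control dOLCs and 7 of ectopic vOLCs, and the part of that makeup in these differences was not tested. Without that group 6 genes were called higher and 31 lower, of which 3 and 13 were among the calls with all members.

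The genes that the study lists as lower in ectopic MOL5/6 cells, chosen on the same libraries and thus no independent evidence, were mostly below 0 here. Of 34 tested, 32 were below 0, with a median of −0.38 against −0.78 in mature cells, and 2 were called lower, beside 2.74% of all tested genes. These were Neat1, a nuclear long noncoding RNA, at 398, 348 and 191 CPM (−1.06, against −1.20 in mature cells), and Erbb2ip (−1.15, against −1.08). Of the genes listed as higher, 8 of 8 tested were above 0, with a median of 0.83 against 0.64 in mature cells, and 3 were called higher, beside 0.53% of all tested genes.

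Tppp, a tubulin polymerisation protein of oligodendrocytes, was at 230, 406 and 119 CPM in MFOLb and differed by −0.95 (−1.58 to −0.36), short of the 2-fold needed for a call, with −1.40 in mature cells. Against control vOLCs, on 21 UMIs in their 8 cells, Tppp was called lower in ectopic vOLCs (−1.77, −2.62 to −0.89). Eya2, a transcription cofactor, had 10, 0 and 1 UMIs in MFOLb of control dOLCs, control vOLCs and ectopic vOLCs, and Tubb3 had 1, 0 and 14 UMIs. Both were under the filter, and their differences were −2.33 (−7.77 to 0.48) for Eya2 and 4.80 (2.08 to 10.2) for Tubb3, compared with −4.94 and 3.78 in mature cells.

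**Figure D5:**
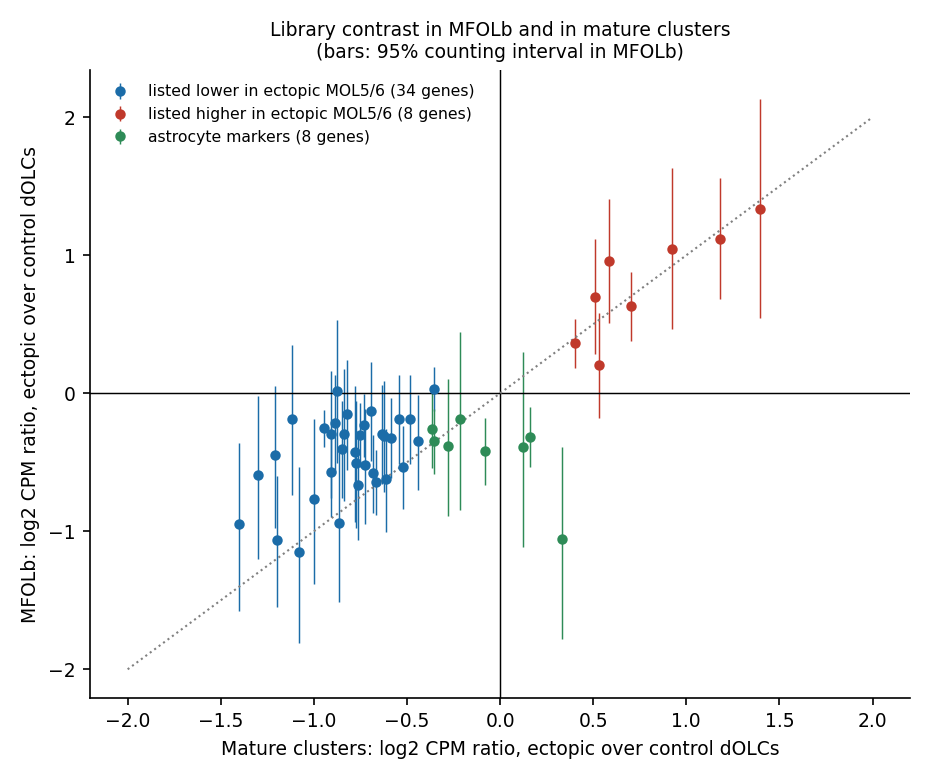
Log2 ratio of CPM of ectopic vOLCs to control dOLCs in MFOLb (vertical axis, bars for the 95% counting interval) against the same ratio in the mature clusters (horizontal axis), 1 point per gene of 3 lists, with a dotted line where both are equal. The 8 genes listed as higher lay above 0, 32 of the 34 listed as lower lay below 0 and the 8 astrocyte markers lay below 0 in MFOLb.

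The 8 control vOLC cells allowed few genes to be tested. Against them, 67 of 847 genes (7.91%) were called higher in ectopic vOLCs and 31 (3.66%) lower, while the median log2 difference over the 847 genes was itself 0.19. Between control vOLCs and control dOLCs, 46 of 1693 genes (2.72%) were called higher in vOLCs and 48 (2.84%) lower, with a median of −0.11. The vOLC members had the highest levels of Gja1, Sox9, Slco1c1 and Btbd17 of the 3 libraries, and with so few cells 1 or 2 of them can set such a level: 2 of the 8 had at least 1% of their UMIs on astrocyte markers.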

How the data were processed

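The authors aligned 10x Genomics reads to mm10, kept cells with over 200 and under 3000 genes and at most 15% mitochondrial counts, clustered them in Seurat and named clusters by transfer from an earlier atlas. The submitters' processing notes name Cell Ranger 2.1.1. The authors deposited raw UMI counts (27998 genes) and an annotation with the library and cluster of each of 9291 kept cells. The library totals were 23078181 UMIs (control dOLCs), 4846391 UMIs (control vOLCs) and 14293675 UMIs (ectopic vOLCs), and the precision of each value is given by its counting interval. The 4 samples of nuclei at P0 were not analysed here.

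UMIs were summed per library and cluster and scaled to totals. Differences between clusters used Mantel-Haenszel ratios with libraries as strata, and differences between libraries conditional exact binomial intervals, at 95%. Genes needed 50 UMIs and detection in 10% of cells of one side. In the comparisons between clusters, genes at 0 UMIs on one side received no call. Between libraries such genes could be called. For control vOLCs against control dOLCs, 3 tested genes had 0 UMIs on one side. No cell was removed as a doublet. Named genes were the 4 markers of the label; Tubb3, Eya2 and Tppp; the 15 genes highest in MFOLb by ratio to the next cluster; among called genes, the 10 highest and 10 lowest ratios against each other class with 1 direction in the libraries of at least 10 cells, and those of ectopic vOLCs to control dOLCs with 1 direction against control vOLCs; up to 6 genes of most UMIs per list; and every called regulator. Genes of a list named because they were called, and any others outside this rule, were chosen after their values were seen. Members and lists were chosen with earlier results of these data known. Python 3.11.15, scanpy 1.11.5, scipy 1.17.1, scikit-learn 1.9.0 and, for TMM factors, edgeR 4.0.16 in R 4.3.3 were used, and the ratios were tested on simulated counts. The results of 3 genes are not reported here.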

Additional observations from a re-analysis of the deposited data

Results flagged for a closer look

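In 6 of the named and listed genes the difference of MFOLb from the mature clusters had opposite signs in control dOLCs and in ectopic vOLCs, with each counting interval leaving out 0. The difference between the libraries was not tested. Syt11, Gna12, Qk and Scd2 are on the study's list of genes lower in ectopic MOL5/6 cells. Aph1a and 1190005I06Rik were named from the contrast of ectopic vOLCs with control dOLCs within MFOLb. All 6 were thus chosen on contrasts of these same libraries, and their opposite signs are no independent evidence. Syt11, a synaptotagmin, was at −0.21 on the log2 scale in control dOLCs and 0.18 in ectopic vOLCs. Aph1a, a subunit of gamma-secretase, was at 0.42 and −1.33. Gna12, a G protein subunit, was at −0.46 and 0.48, and 1190005I06Rik at −0.69 and 0.57. Qk, an RNA-binding protein of myelin gene splicing, was at −0.29 and 0.21, and Scd2, a fatty acid desaturase, at −0.26 and 0.44.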

How the results depend on the processing

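No paired analysis was possible because no condition had more than 1 library, and for the same reason no library could be left out within a condition. Mature cells were 99.1% of the neighbours outside the cluster with 15 neighbours and 96.8% with 20 components. Against the mature clusters, the higher and lower calls were 1024 and 42 at a minimum of 20 UMIs; TMM scaling, which shifted the median of all genes by −0.16, gave 41 lower calls, and all 289 of its higher calls were among the 336. With cells thinned to 1000 UMIs 72 genes were called higher, with at most 10% mitochondrial counts 25 lower, from control dOLCs alone 42 lower, from ectopic vOLCs alone 45 lower, without the 39 members of highest astrocyte share 159 higher and 30 lower, and from the 40 of lowest share alone 38 lower. The alternatives on astrocyte share were chosen after seeing the data. Against COP/NFOL/MFOLa the calls were 561 higher and 689 lower at 20 UMIs, 89 and 68 with thinned cells, and 174 and 98 from ectopic vOLCs alone. For ectopic vOLCs against control dOLCs they were 43 and 165 at 20 UMIs, 1 and 5 with thinned cells, 25 higher under TMM scaling, 38 lower with at most 10% mitochondrial counts, 6 and 31 without the members of highest astrocyte share, and 67 and 31 with control vOLCs as the control. As a mean over cells, astrocyte markers in MFOLb of control dOLCs stood at 4646 CPM (4850 from sums) and myelin protein genes at 61053 CPM (61832 from sums). The correlation of astrocyte and myelin share turned from −0.72 (r) and −0.36 (rho) to 0.0805 and 0.0761 without the highest group. Klk6 turned to 0.65 against MOL5/6 alone, Tubb3 to 0.027 with thinned cells and A430005L14Rik to 0.10 in the lowest group, all against the mature clusters, and Sft2d1 to −0.11 in ectopic vOLCs with thinned cells. Thinning and subsets leave fewer UMIs and fewer genes tested; the cause of other changes was not tested.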
